A study of Sus scrofa with 10 samples.

Results

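NADPH oxidases and antioxidant enzymes were followed in the right ventricle of pigs with chronic thromboembolic pulmonary hypertension (CTEPH), a disease in which organised clots narrow the pulmonary arteries and raise the pressure that the right heart must pump against, and in Sham pigs. The set holds 10 genes chosen by symbol: the oxidase genes NOX4, NOX5, CYBA and CYBB, the superoxide dismutase genes SOD1, SOD2 and SOD3, the catalase gene CAT and the glutathione peroxidase genes GPX1 and GPX3. Of these, 9 had a row in the deposited table of Ensembl pig genes, which holds 12378 genes with a symbol and 3260 without. CYBB is not analysed here. The 9 genes were chosen with results of CTEPH against Sham already known, so their differences between the groups are given as a description, with no p-value. Ventricular biopsies came from 5 CTEPH and 5 Sham pigs, with 1 RNA library per pig, numbered s1 to s10 by the submitters. The Sham pigs gave s2, s6, s7, s8 and s10, and the CTEPH pigs gave the other 5 libraries. The labels do not say how CTEPH was induced or for how long, and give no breed, sex or age.

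NADPH oxidases are membrane proteins that move electrons from NADPH across a membrane to oxygen and release superoxide or hydrogen peroxide. Superoxide dismutases turn superoxide into hydrogen peroxide, and catalase and the glutathione peroxidases remove the peroxide. In heart and vessel wall these enzymes set the level of oxidants that act as signals at low amounts and damage lipids, proteins and DNA at high amounts.

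The values are log2 expression values, quantile-normalized so that every library has nearly the same distribution, with library medians of 9.305 to 9.308. They are not per length, so levels are compared between libraries and not between genes. Low values could be read back as whole counts (exact except for 1 shared factor of 2), and relative depth from these counts ranged from 0.726 to 1.55 in CTEPH and from 0.758 to 1.48 in Sham. Cardiomyocyte genes had a summed log2 level of 21.43 to 21.60 in CTEPH and 21.02 to 21.52 in Sham over the 9 of 13 listed markers that were measured, and none of the 9 was at a count of 0. Differences between the groups were fitted with limma over all genes, with Benjamini-Hochberg adjustment, and a gene is called at an adjusted p under 0.05. In CTEPH 443 genes (2.83%) were called higher and 280 (1.79%) lower, together 4.62% of the table. Of the 9 cardiomyocyte markers 1 was called, MYL2, higher in CTEPH (0.99 ± 0.21, limma adjusted p = 0.0173). Its CTEPH mean of 19.81 is the largest in the cardiomyocyte sum. The 9 markers had 5 positive and 4 negative differences, with a median of 0.01.

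NOX5 stood apart within the set: its transcript was 4.73-fold lower in CTEPH, and each CTEPH ventricle lay below each Sham ventricle. The other 8 genes had overlapping groups and differences of -0.79 to 0.53 on the log2 scale. In 5 of the 9 genes the mean was lower in CTEPH and in 4 it was higher, with a median log2 difference of -0.15 against -0.03 over all genes. NOX5 was the only 1 of the 9 past the adjusted p of 0.05 that 4.62% of all genes passed, and the only one whose groups did not overlap, as in 6.57% of all genes (2.87% with CTEPH below Sham). Nothing is read from these counts, because the contrast was known when the genes were chosen.

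**Figure D1:**
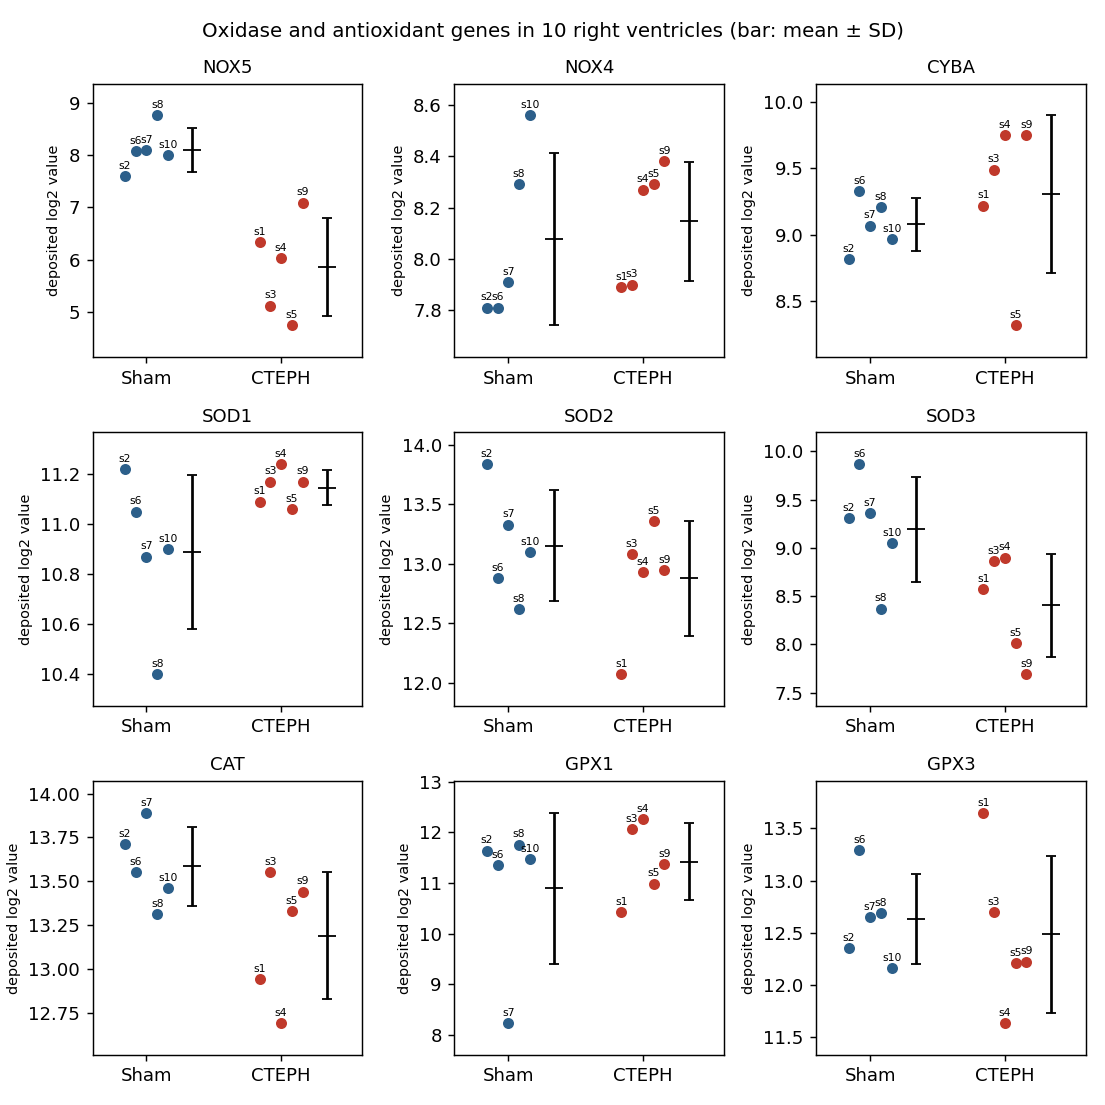
Deposited log2 value (vertical axis, a separate range in each panel) of each gene in the 5 Sham (blue) and 5 CTEPH (red) libraries, with each point labelled by library and black bars for the mean ± SD. In NOX5 the CTEPH points end at 7.09 and the Sham points begin at 7.59, while the groups overlap in the other 8 panels.

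NOX5 encodes the calcium-activated NADPH oxidase. It carries calcium-binding EF-hands, works without the cytosolic organiser subunits that other oxidases need, and is missing from the genomes of mice and rats. The gene lies on chromosome 1 from 166866930 to 166907994 (Sscrofa11.1). Its log2 values in CTEPH were 6.33 in s1, 5.12 in s3, 6.02 in s4, 4.74 in s5 and 7.09 in s9. In Sham they were 7.59 in s2, 8.07 in s6, 8.09 in s7, 8.76 in s8 and 8.0 in s10. The CTEPH ventricles were therefore spread more widely, from s5 at the bottom to s9 just under the lowest Sham ventricle. The means were 5.86 ± 0.944 in CTEPH and 8.10 ± 0.42 in Sham (mean ± SD, n = 5 per group), a log2 difference of -2.24 ± 0.40 (SE of the limma fit).

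Whole counts behind the NOX5 values were small but not near 0. They were 38, 16, 55, 14 and 50 in the CTEPH libraries in the order s1, s3, s4, s5, s9, and 111, 195, 101, 170 and 106 in the Sham libraries in the order s2, s6, s7, s8, s10. At the lowest of these, 14, counting error alone is 26.7% (1 SD), which covers counting only. Divided by relative depth, the counts were 34.6 ± 22.0 in CTEPH and 139 ± 43.5 in Sham (mean ± SD, n = 5 per group), 4.03 times as high in Sham. The highest depth-scaled CTEPH count was 68.8, in s9, and the lowest Sham count was 93.9, in s2. Leaving out any 1 library kept the log2 difference between -2.55 and -1.96.

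**Figure D2:**
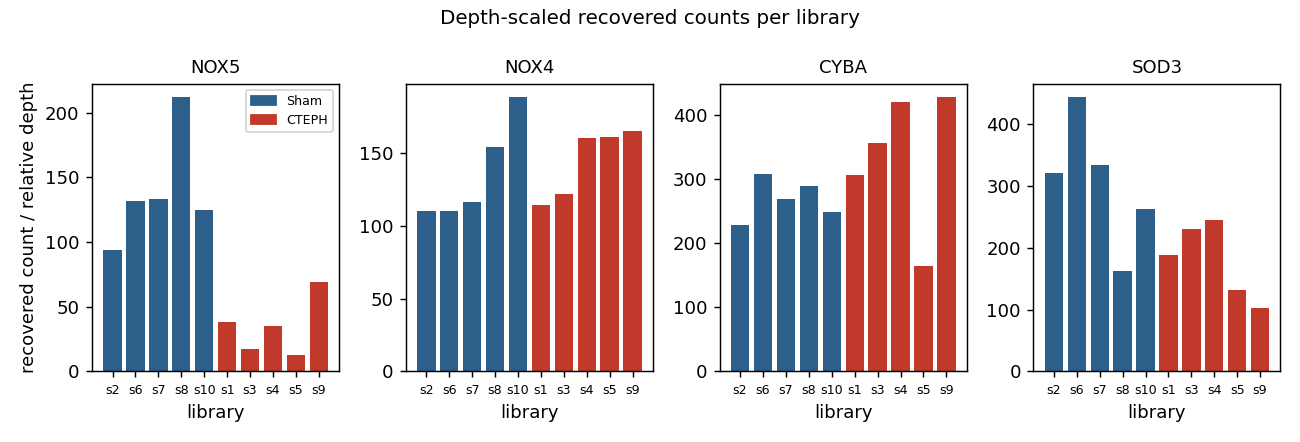
Recovered whole counts divided by relative depth (vertical axis, a separate range in each panel) for the 4 genes recovered in all 10 libraries, with Sham bars in blue and CTEPH bars in red. The NOX5 bars of CTEPH reach 68.8 at most and those of Sham 93.9 at least, and the bars of the groups overlap for NOX4, CYBA and SOD3.

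NOX5 has been described in endothelial and vascular smooth muscle cells, and endothelial markers were also lower in CTEPH. Of 12 endothelial markers, 11 were measured, all 11 had negative log2 differences with a median of -0.35, and 1 fell, the angiopoietin receptor gene TEK (-0.78 ± 0.17, limma adjusted p = 0.0205). The summed log2 level of the 11 markers was 15.06 to 15.36 in CTEPH and 15.14 to 15.93 in Sham. No endothelial marker was at a count of 0 in any library, and the part of endothelial RNA in the NOX5 difference was not tested. In Sham the endothelial sum was 15.14 in s2, 15.73 in s6, 15.52 in s7, 15.93 in s8 and 15.33 in s10, with s8 highest and s2 lowest, as for NOX5. In CTEPH it was 15.06 in s1, 15.09 in s3, 15.36 in s4, 15.28 in s5 and 15.14 in s9. There the sum was highest in s4 and lowest in s1, and NOX5 was highest in s9 and lowest in s5. Sums weight abundant markers more. Averaged with equal weight, as log2 values minus the gene mean, levels in CTEPH ran from -0.38 in s1 to -0.0 in s4. On that scale s5 was at -0.20 and s9 at -0.15. All 10 smooth muscle and pericyte markers were measured, 5 with positive and 5 with negative differences, with a median of -0.04. Their summed level was 14.44 to 15.69 in CTEPH and 14.81 to 15.26 in Sham, and 1 of them rose, the calponin gene CNN1 (1.98 ± 0.47, limma adjusted p = 0.0294). In bulk tissue, fewer cells of a type and less RNA per cell cannot be told apart.

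NOX4 did not share the NOX5 pattern. It encodes a constitutively active oxidase that releases mainly hydrogen peroxide and depends on the CYBA protein, and it lies on chromosome 9 from 22622105 to 22776691. Its log2 values in CTEPH were 7.89 in s1, 7.90 in s3, 8.27 in s4, 8.29 in s5 and 8.38 in s9. In Sham they were 7.81 in s2, 7.81 in s6, 7.91 in s7, 8.29 in s8 and 8.56 in s10. The ranges almost coincide, and the highest and the lowest values of all are both Sham. Averages of 8.15 ± 0.232 and 8.07 ± 0.336 (mean ± SD, n = 5 per group) gave a log2 difference of 0.07 ± 0.20 (SE). Counts of 88 to 248 lay behind these values, with depth-scaled means of 144 ± 24.4 in CTEPH and 136 ± 34.4 in Sham.

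CYBA encodes p22phox, the membrane partner that stabilises NOX4 and the phagocyte oxidase, and lies on chromosome 6 from 1015212 to 1021422. Its values were 9.22 in s1, 9.49 in s3, 9.75 in s4, 8.32 in s5 and 9.75 in s9 for CTEPH, and 8.82 in s2, 9.33 in s6, 9.07 in s7, 9.21 in s8 and 8.97 in s10 for Sham. CTEPH held both extremes: 3 ventricles above all Sham ventricles and s5 below them. The means were 9.30 ± 0.594 and 9.08 ± 0.20 (mean ± SD, n = 5 per group), and the log2 difference was 0.23 ± 0.25 (SE). It was 0.47 without s5 and 0.12 without s4 or s9.

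The genes that work with these oxidases were taken from a list of 15, of which 9 were measured. By limma 0 of the 9 passed in either direction (Benjamini-Hochberg), 3 had an unadjusted p under 0.05, against 20.3% of all genes, and the median log2 difference was 0.10. NCF4, which encodes the phagocyte oxidase subunit p40phox, was at 8.59 ± 0.548 in CTEPH and 7.87 ± 0.34 in Sham (mean ± SD, n = 5 per group), a difference of 0.71 ± 0.27 (SE, limma adjusted p = 0.152), with 4 of 5 CTEPH ventricles above all Sham ventricles. The organiser gene NCF1 (p47phox) was at 0.46 ± 0.30 and the GTPase genes RAC1 and RAC2 at -0.04 ± 0.12 and 0.28 ± 0.30. POLDIP2, which binds p22phox and raises NOX4 activity, was at 0.10 ± 0.25. The dual oxidase genes, which like NOX5 encode oxidases with EF-hands, were at 0.01 ± 0.40 for DUOX1 and -0.61 ± 0.26 for DUOX2 (limma adjusted p = 0.996 and 0.199), and 3 of 5 CTEPH ventricles lay below all Sham ventricles in DUOX2.

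CYBA, NCF1 and NCF4 are abundant in phagocytes, and macrophage markers are given beside them. Of 18 macrophage and monocyte markers 16 were measured, 14 with positive differences, with a median of 0.38, and 2 rose, LYZ (2.38 ± 0.55) and TREM2 (2.69 ± 0.65), at limma adjusted p = 0.0279 and 0.0325. Their summed log2 level was 13.69 to 14.84 in CTEPH and 13.40 to 14.23 in Sham. Within CTEPH this sum was lowest in s5 (13.69) and highest in s1 (14.84). Averaged with equal weight, as log2 values minus the gene mean, the markers were at -0.14 in s5 and 0.53 in s1 and s3. CYBA was at 8.32 in s5, 9.22 in s1 and 9.49 in s3. The lysosomal marker CD68 had a negative difference, -0.50 ± 0.20 (limma adjusted p = 0.175). None of these markers was at a count of 0, but TREM2 was low in Sham, at log2 values of 2.01 to 4.15. Values that low stand for only a few counts. In CTEPH TREM2 was at 3.78 to 6.70, and LYZ was at 3.98 to 6.89 in Sham. The part of the macrophage markers in the values of CYBA and NCF4 was not tested. Of 10 neutrophil markers only 4 were measured, with 3 negative differences, a summed level of 7.10 to 7.79 in CTEPH and 7.55 to 8.46 in Sham, and 1 of the 4 at a count of 0 in some library.

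The superoxide dismutases work in different places, and of the 3 genes SOD3 had the largest difference between the groups. SOD3 is the copper and zinc enzyme that is secreted and held by heparan sulfate on cell surfaces and in the matrix, and it lies on chromosome 8 from 18796633 to 18802156. Its log2 values were 8.57 in s1, 8.86 in s3, 8.90 in s4, 8.01 in s5 and 7.69 in s9 for CTEPH, and 9.31 in s2, 9.87 in s6, 9.36 in s7, 8.37 in s8 and 9.05 in s10 for Sham. Only s8 of the Sham ventricles reached into the CTEPH range, and 2 CTEPH ventricles, s5 and s9, lay below s8. The means were 8.41 ± 0.535 and 9.19 ± 0.548 (mean ± SD, n = 5 per group), a log2 difference of -0.79 ± 0.30 (SE), 1.73-fold lower in CTEPH. Depth-scaled counts were 180 ± 61.0 in CTEPH and 304 ± 102 in Sham, from counts of 75 to 654. Without any 1 library the difference stayed between -0.99, without s8, and -0.61, without s9.

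SOD2, the manganese enzyme of the mitochondrial matrix (chromosome 1, 7679352 to 7689564), varied as much among pigs of a group as between groups. It was at 12.07 in s1, 13.08 in s3, 12.93 in s4, 13.36 in s5 and 12.95 in s9 for CTEPH, and at 13.84 in s2, 12.88 in s6, 13.33 in s7, 12.62 in s8 and 13.10 in s10 for Sham. The lowest value was CTEPH library s1 and the highest Sham library s2. The log2 difference of -0.27 ± 0.25 (SE) was -0.07 without s1 and -0.10 without s2.

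SOD1, the cytosolic copper and zinc enzyme (chromosome 13, 195326573 to 195335273), was nearly constant in CTEPH. Its values there were 11.09 in s1, 11.17 in s3, 11.24 in s4, 11.06 in s5 and 11.17 in s9, an SD of 0.0722. Sham spread from 10.40 in s8 through 10.87 in s7, 10.90 in s10 and 11.05 in s6 to 11.22 in s2, an SD of 0.305. The log2 difference was 0.26 ± 0.15 (SE) and was 0.14 without s8. CCS, the chaperone that loads copper into SOD1, was at 9.79 ± 0.306 in CTEPH and 9.83 ± 0.311 in Sham (mean ± SD, n = 5 per group).

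CAT, the peroxisomal haem enzyme that splits hydrogen peroxide (chromosome 2, 26493664 to 26533881), was a little lower in CTEPH. It was at 12.94 in s1, 13.55 in s3, 12.69 in s4, 13.33 in s5 and 13.44 in s9 for CTEPH, and at 13.71 in s2, 13.55 in s6, 13.89 in s7, 13.31 in s8 and 13.46 in s10 for Sham. Libraries s1 and s4 lay below all Sham libraries, and the other 3 CTEPH libraries lay within the Sham range. The means of 13.19 ± 0.362 and 13.58 ± 0.225 (mean ± SD, n = 5 per group) gave a log2 difference of -0.39 ± 0.18 (SE), 1.31-fold lower in CTEPH.

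GPX1 and GPX3 are selenium enzymes that reduce peroxides with glutathione, GPX1 inside cells and GPX3 after secretion. GPX1 (chromosome 13, 31916269 to 31917337) was at 10.42 in s1, 12.06 in s3, 12.27 in s4, 10.99 in s5 and 11.38 in s9 for CTEPH. In Sham it was at 11.64 in s2, 11.36 in s6, 8.23 in s7, 11.76 in s8 and 11.47 in s10. Library s7 lay 3 log2 units or more below each other library except s1 and s5, and a whole count of 111 lay behind its value. The log2 difference of 0.53 ± 0.60 (SE) turned to -0.14 when s7 was left out, so its direction rests on that library.

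GPX3 (chromosome 16, 71980467 to 71989011) was at 13.65 in s1, 12.70 in s3, 11.63 in s4, 12.21 in s5 and 12.22 in s9 for CTEPH, and at 12.35 in s2, 13.29 in s6, 12.65 in s7, 12.69 in s8 and 12.16 in s10 for Sham. CTEPH held both the highest value, in s1, and the lowest, in s4. The log2 difference was -0.15 ± 0.32 (SE), which became -0.44 without s1, 0.07 without s4 and 0.02 without s6.

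Red cells are rich in CAT, GPX1 and SOD1 protein, and blood markers varied widely between libraries of both groups. Of 13 erythroid markers 3 were measured (HBB, ALAS2 and EPB42), with a summed log2 level of 8.89 to 11.79 in CTEPH and 7.63 to 10.58 in Sham, and 0 of the 3 passed by limma (Benjamini-Hochberg). None was at a count of 0, and their part in the values of CAT, GPX1 and SOD1 was not tested.

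**Figure D3:**
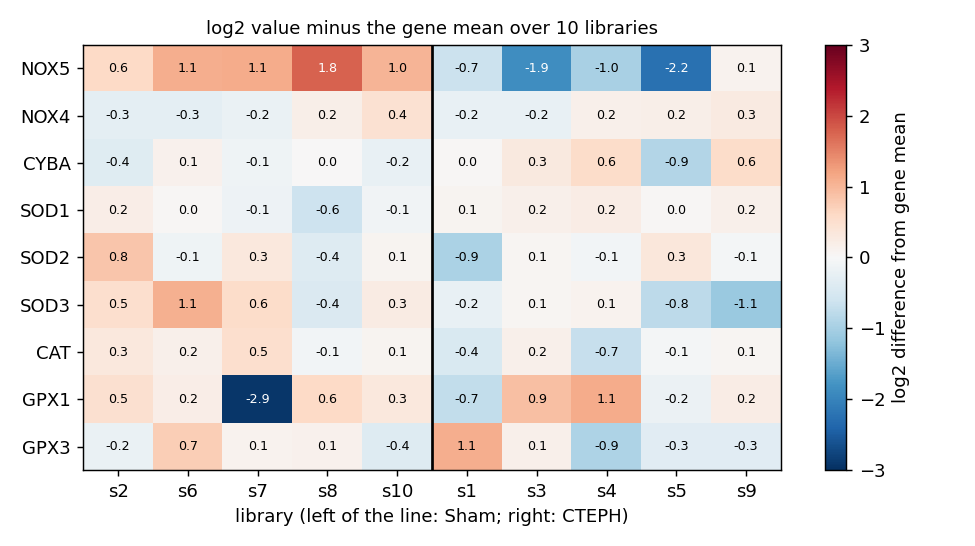
Log2 value of each gene minus its mean over the 10 libraries (colour and printed number), with Sham libraries left of the line and CTEPH libraries right of it. NOX5 is above its mean in the 5 Sham libraries, and the darkest single cell is GPX1 in Sham library s7, whose deposited value was 8.23.

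The 9 genes also differed in how much they varied among pigs of the same group, a measure that does not use the contrast. The pooled within-group SD was 0.222 for SOD1, at the 18.2nd percentile of all genes, 0.289 for NOX4 (35.4th) and 0.301 for CAT (38.4th). It was 0.443 for CYBA (64.6th), 0.476 for SOD2 (68.7th), 0.542 for SOD3 (75.3rd), 0.613 for GPX3 (81.3rd), 0.731 for NOX5 (87.7th) and 1.19 for GPX1 (97.1st). The median over all genes was 0.354. CYBA, SOD2, SOD3, GPX3, NOX5 and GPX1 thus varied more than the median gene, and SOD1, NOX4 and CAT less. The percentiles take no account of expression level or counting error. NOX5 had only 14 to 55 counts in CTEPH, and the GPX1 spread includes Sham library s7 at 8.23, with the next Sham library at 11.36.

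Genes with the most similar pattern among pigs were found after removing the group means and scaling each gene to the same spread, by the root mean square difference over the 10 libraries (0 is an identical pattern, and the median gene was at 1.40 to 1.43). For SOD2 the nearest was TCP1, a chaperonin subunit gene, at 0.27, which lies 78643 bases from SOD2 on chromosome 1 with 2 annotated genes between them. The next was NNT, the mitochondrial transhydrogenase gene that makes NADPH, at 0.31. The nearest genes were GRAMD1C (0.35), POLG2 (0.36) and KLHL13 (0.36) for NOX5, and TAGLN3 (0.39), METTL8 (0.45) and APOF (0.46) for NOX4. For GPX1 the nearest was REEP4, at 0.27. These are the closest of all genes with a symbol, over only 10 libraries.

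Beyond the 9 genes, 7 lists of oxidant and antioxidant genes held 150 names, of which 124 were measured. Of the 124, 4 rose and 0 fell (3.23%, against 4.62% of all genes; limma, Benjamini-Hochberg), and the median log2 difference was 0.10 against -0.03 over all genes. The 4 risers were GPX7, CHAC2 and MGST3 of the glutathione list and the copper chaperone gene ATOX1. At an unadjusted p under 0.05 there were 24 of the 124 genes, 17 higher and 7 lower, a share no larger than the 20.3% of all genes. The count of 4 rested on single libraries, since it was 0 without CTEPH library s4, 1 without CTEPH library s3 or Sham library s6, s7 or s10, 2 without CTEPH library s5 and 7 without CTEPH library s9.

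Among 20 measured genes of glutathione peroxidases, synthesis and transferases, 3 rose and 0 fell (limma, Benjamini-Hochberg), with a median of 0.15. GPX7, a peroxidase of the endoplasmic reticulum that uses cysteine in place of selenocysteine, was at 9.71 in s1, 9.29 in s3, 9.77 in s4, 9.41 in s5 and 9.41 in s9 for CTEPH, and at 8.67 in s2, 9.01 in s6, 8.66 in s7, 8.60 in s8 and 8.93 in s10 for Sham. The groups did not overlap, and GPX7 rose by 0.75 ± 0.16 (SE) on the log2 scale (limma adjusted p = 0.0181). It lost its call in 1 of 10 refits without 1 library, that without s4 (adjusted p = 0.0511). GPX8, its relative in the same compartment, was at 0.40 ± 0.15 (limma adjusted p = 0.156), and its groups did not overlap either.

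CHAC2, an enzyme that breaks down glutathione, had the largest rise of the 4, by 1.27 ± 0.30 (SE), from 5.81 ± 0.579 in Sham to 7.08 ± 0.289 in CTEPH (SD, 5 pigs per group; limma adjusted p = 0.0306). MGST3, a membrane glutathione transferase and peroxidase, rose by 0.52 ± 0.13, from 13.13 ± 0.0916 to 13.65 ± 0.244 (limma adjusted p = 0.0464). In both genes the 5 CTEPH ventricles lay above all Sham ventricles, but the calls were lost in 7 and 9 of the 10 refits without 1 library, with adjusted p of up to 0.0787 and 0.111 (limma, Benjamini-Hochberg). GGT5, which cleaves extracellular glutathione conjugates, was at -0.96 ± 0.26 with groups that did not overlap, just outside the threshold (limma adjusted p = 0.0543). The phospholipid hydroperoxidase gene GPX4 was at -0.41 ± 0.17, and the glutathione synthesis genes GCLC and GCLM at 0.36 ± 0.18 and 0.31 ± 0.17, none of which passed (limma adjusted p = 0.202, 0.271 and 0.326).

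Of 24 measured genes of metal and selenium supply, 1 rose and 0 fell (limma, Benjamini-Hochberg), with a median of 0.13. ATOX1 passes copper to the pumps that load secreted copper enzymes such as SOD3. It rose by 0.67 ± 0.17 (SE), from 9.28 ± 0.234 in Sham to 9.95 ± 0.287 in CTEPH (SD, 5 pigs per group; limma adjusted p = 0.0463), with 4 of 5 CTEPH ventricles above all Sham ventricles. The call was lost in 8 of 10 refits without 1 library (adjusted p up to 0.113). The copper pump gene ATP7A was at -0.12 ± 0.20 and the copper importer gene SLC31A1 at 0.62 ± 0.23 (limma adjusted p = 0.777 and 0.151). SELENOF, a selenoprotein of the endoplasmic reticulum, was at 0.44 ± 0.12 with groups that did not overlap (limma adjusted p = 0.0677). It passed in 2 of 15 alternative fits, without CTEPH library s1 (limma adjusted p = 0.0312) and with library weights (limma adjusted p = 0.0281). Over the 15 fits its adjusted p reached 0.151. Genes that insert selenocysteine, the residue that GPX1 and GPX3 need, were at -0.17 ± 0.13 for SECISBP2 and -0.12 ± 0.15 for EEFSEC.

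Neither the thioredoxin system nor the targets of NRF2, the transcription factor that drives many antioxidant genes, held a called gene in the fit to all 10 libraries. By limma 0 of 21 peroxiredoxin and thioredoxin genes and 0 of 21 NRF2 regulators and targets passed (Benjamini-Hochberg), with 2 and 3 at an unadjusted p under 0.05 and medians of 0.06 and -0.12. SRXN1, which repairs overoxidised peroxiredoxins, was at 1.17 ± 0.39 and SESN3 at 0.71 ± 0.31 (limma adjusted p = 0.107 and 0.219). SRXN1 passed in 2 of 15 alternative fits, without CTEPH library s9 (1.41, limma adjusted p = 0.0473) and with library weights (limma adjusted p = 0.039). Without CTEPH library s1 its difference was 0.81 (limma adjusted p = 0.124), and over the 15 fits the adjusted p reached 0.201. The mitochondrial peroxiredoxin gene PRDX3 was at 0.11 ± 0.15. NFE2L2, which encodes NRF2, was at -0.16 ± 0.17, its inhibitor gene KEAP1 at -0.13 ± 0.12, and its target NQO1 at -0.12 ± 0.18. Other genes of the NRF2 list lay on both sides of 0. HMOX1 was at 0.73 ± 0.41, OSGIN1 at 0.55 ± 0.32 and BLVRB at -0.66 ± 0.31 (limma adjusted p = 0.339, 0.358 and 0.243). NFE2L1 and AKR1A1, with the smallest p of that list, were at -0.47 ± 0.18 and 0.51 ± 0.19 (limma adjusted p = 0.166 and 0.151).

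Among genes that make NADPH, the fuel shared by the oxidases and by glutathione reduction, 0 of 18 passed by limma (Benjamini-Hochberg), 2 had an unadjusted p under 0.05 and the median was 0.18. These were the folate enzyme genes MTHFD1 (0.46 ± 0.16) and MTHFD2 (0.77 ± 0.31), at limma adjusted p = 0.134 and 0.181. IDH2, the mitochondrial isocitrate dehydrogenase gene, was at 0.07 ± 0.12. Of 11 other oxidant sources 0 passed by limma (Benjamini-Hochberg), 1 had an unadjusted p under 0.05, and the median was 0.16. That gene was XDH, xanthine oxidoreductase, at 12.18 ± 1.18 in CTEPH and 10.40 ± 1.58 in Sham (mean ± SD, n = 5 per group), a difference of 1.78 ± 0.70 (limma adjusted p = 0.169) that was 1.16 without Sham library s6. The prostaglandin synthase gene PTGS1 was at 0.48 ± 0.24 and the endothelial nitric oxide synthase gene NOS3 at -0.45 ± 0.25 (limma adjusted p = 0.272 and 0.336). Beside the genes that rose on these lists, 9 of 9 measured markers of dividing cells also rose, with a median of 3.60, and their part in those rises was not tested.

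**Figure D4:**
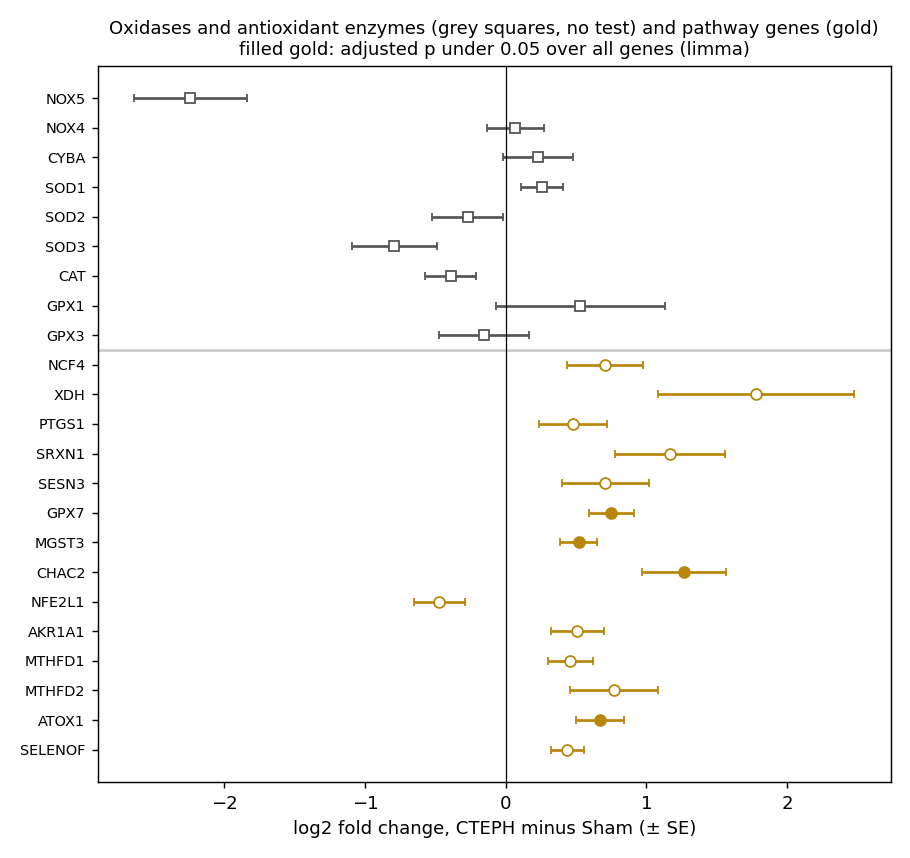
Log2 fold change, CTEPH minus Sham, with its SE for the 9 genes of the set (grey squares) and for 14 genes of the pathway lists (gold circles, filled where the adjusted p was under 0.05 over all genes). NOX5 lies farthest from 0 at -2.24, and the filled circles are GPX7, MGST3, CHAC2 and ATOX1, between 0.52 and 1.27.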

How the data were processed

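Per the submitters' processing notes, the tools were cutadapt 1.15, FastQC 0.11.5, bcl2fastq 2.18.12, featureCounts, limma 3.50.0 and edgeR 3.36.0, and the build Sscrofa11.1. The sources used here do not give the aligner, annotation, strand setting or low-count filter, nor how shared reads were counted. The labels name polyA RNA and a total RNA kit, so whether polyadenylated RNA was selected is unclear.

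The authors deposited 1 log2 value per gene and library. From their form they are quantile means over the 10 libraries of log2(2 × count + 1), and 102445 of them (65.5%), those below 10.24, gave back whole counts (largest error 5.00e-09, tolerance 1e-06). Relative depth is the median ratio of counts to the geometric mean over 7707 genes with at least 5 counts in each library. Library totals could not be computed. Quantile normalization hides any change shared by most genes.

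Ensembl identifiers were matched to symbols by table, and coordinates came from RefSeq genes of Sscrofa11.1 matched by symbol. The comparison used limma 3.58.1 (R 4.3.3) on the deposited log2 values, with an intensity trend, no covariate, a two-sided test and Benjamini-Hochberg adjustment over all genes. The fit and the count recovery were tested on simulated data. The set, the 7 pathway lists and the 10 marker lists were chosen with earlier results of these data known. Named list genes are those past the threshold, at most 5 per list, and the 2 with the smallest p. Others named in the text were chosen for their role, some after their values were seen. Marker sums are log2 of the summed linear values. Some list genes are counted but not reported here by name. No sequences are shown.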

Additional observations from a re-analysis of the deposited data

Results flagged for a closer look

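Each group of 5 libraries was checked for a library that stands apart, by the gap to its neighbour as a share of the group's range (above 0.71), for the 9 genes and the 15 pathway genes named by rule. Chance flags about 1 in 20 groups, and 3 of the 48 groups were marked. GPX1 in Sham library s7 was at 8.23, with the next Sham library at 11.36, a share of 0.887. Over all genes s7 was such a low library among Sham in 68, of which 4 lay at least 3 log2 units below the next. CHAC2 in CTEPH library s1 was at 7.58, with the next at 7.04. MTHFD1 in Sham library s8 was at 10.21, with the next at 10.68.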

How the results depend on the processing

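NOX5 kept a negative difference under all 15 alternatives that included it, from -2.55 to -1.93. Dropping the lowest 25% of genes removed NOX5 itself and left 0 called genes in the set. SOD2, SOD3 and CAT stayed negative and NOX4, CYBA and SOD1 positive in every alternative run, while GPX1 and GPX3 changed sign without single libraries. Library weights raised the count of called genes to 1269, and voom on recovered counts, chosen after seeing the data and limited to 8779 genes, gave 401. Without 1 library the count was 401 to 961. The 4 pathway calls became 2 without the variance trend, 11 with library weights, 2 without the lowest 25% of genes, and 0 to 7 without 1 library. The cause was not tested. The 16 added as a pseudocount and recentring by the median of ratios left every count within 1.5 times. The recentring could change little, because after quantile normalization the shifts were only -0.0277 (s4) to 0.0215 (s7) log2. No paired analysis was possible because the library numbers occur once each and pair no pigs. Depth limits NOX5 most, at 14 to 55 counts in CTEPH.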

Other observations

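CTEPH library s1 was high in a few oxidant-response genes, a set of 9 chosen after its values were seen. It held the highest value of all 10 libraries in 5 of the 9. SRXN1 was at 10.54 in s1, 8.14 to 9.61 in the other CTEPH libraries and 7.41 to 8.20 in Sham. The haem oxygenase gene HMOX1 was at 9.77, against 7.45 to 8.62 and 7.20 to 8.44. SESN2 was at 9.74, against 5.44 to 6.81 and 6.34 to 6.89, and OSGIN1 at 9.02, against 7.39 to 8.41 and 7.08 to 7.73. TXNRD1, at 8.82 in s1, was below the other CTEPH libraries (9.31 to 10.71), and GCLM, at 9.95, was too (10.15 to 10.78). The same library was highest in GPX3 (13.65) and lowest in SOD2 (12.07) among the 10. It also stood at the end of the 10 in sums of cell type markers. Its macrophage sum was the highest (14.84), and its smooth muscle and pericyte sum (14.44) and fibroblast sum (17.01) were the lowest. What sets s1 apart was not tested. The metallothionein gene MT3 had an SD of 2.03 in CTEPH and 0.485 in Sham, with means of 9.26 and 11.22 (n = 5 each). Its difference of -1.97 ± 0.74 (SE) was not called (limma adjusted p = 0.152). CTEPH library s9, at 12.32, lay above all Sham libraries (10.60 to 11.80).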
